A study of Drosophila melanogaster with 216 samples.

Results

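The 10 genes described here encode testis transcription regulators of the meiotic arrest pathway of the fruit fly *Drosophila melanogaster*: *aly*, *comr*, *topi*, *tomb*, *can*, *mia*, *nht*, *sa*, *tbrd-1* and *tbrd-3*. They were chosen by name, and a probe set stands for a gene where the platform annotation pairs it with that gene alone. Each of the 10 genes had 1 such probe set, so 10 of the 18769 probe sets tested and 10 of the 11981 genes with a probe set of their own are members. The probe sets were 1627064_at (*aly*), 1636050_at (*comr*), 1639848_at (*topi*), 1639996_at (*tomb*), 1639670_at (*can*), 1635813_at (*mia*), 1631270_at (*nht*), 1632138_at (*sa*), 1624694_at (*tbrd-1*) and 1640010_at (*tbrd-3*).

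In the fly testis, germ cells stop dividing by mitosis, grow for days as primary spermatocytes and in that time switch on the genes for meiosis and for building sperm. The switch needs proteins made in spermatocytes, both a testis form of the MuvB/dREAM complex, called tMAC, and a set of testis forms of the TBP-associated factors (TAFs) of general transcription factor TFIID. In mutants of tMAC or of the testis TAFs, spermatocytes stop before the meiotic divisions and spermatid genes stay off, which gives the pathway its name.

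The study asked how food eaten as a larva and as an adult shapes the adult transcriptome. RNA came from whole bodies of 5 flies per array and was measured on Affymetrix Drosophila 2.0 arrays, 4 arrays per group and 216 in all. The 54 groups cross sex (male, female), larval diet (0.25SY, 1SY, 2.5SY), adult diet (0.25SY, 1SY, 2.5SY) and age. The study's methods describe unmated flies for middle and old age, while the sampling of the 1-day-old flies is known from the labels alone, and whether these came from the same cohorts is not given. By the study's methods, 1SY is the laboratory food, with 100 g of sugar and 70 g of yeast in a litre, and the other foods hold 0.25 and 2.5 times as much of both. One passage of the study's text gives the sugar and the yeast the other way round. The ages are 1 day after eclosion, 10% cohort mortality (middle-aged) and 90% cohort mortality (old). The days lived to 10% and 90% mortality are not in the labels and may differ between diets and sexes, so the later ages are points on a survival curve rather than calendar ages. Each value is a log2 expression value, and a log2 difference of 1 is a 2-fold difference in signal. Levels of different probe sets are not compared with each other.

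Of the 36 arrays labelled as old males, 3 stood apart from the other 33, and the main results that rest on old males are given with and without the array among them that has a female profile. The array of larval 0.25SY, adult 2.5SY, replicate 1 had a female profile: over all probe sets it correlated with the median of old females at r = 0.9965 and with that of the other old males at r = 0.8233. Its mean over the 11 eggshell and yolk markers was 13.67 and over the 15 spermatid differentiation targets 5.25, against 6.26 to 9.42 and 11.39 to 12.13 in the 33 other old males. This array was left out of the values below unless they are given "with" it. On the array of larval 1SY, adult 0.25SY, replicate 1 the 8 female germline markers averaged 9.21, against 6.21 to 6.88 in the other old males, and the spermatid targets 10.77. The array of larval 0.25SY, adult 1SY, replicate 3 lay closest to 1-day-old males (r = 0.9975, against 0.9697 with the other old males). The mean of the 10 genes was 5.20, 5.99 and 7.35 on these arrays in that order, against 6.47 to 7.25 in the other old males and 4.996 to 5.358 in old females. On the first array and on the second, each of the 10 genes lay below all 33 other old males. On the third array 9 of 10 genes lay within the range of 1-day-old males and 5 of 10 lay above all other old males. Whether flies or samples were mixed was not tested.

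**Figure D1:**
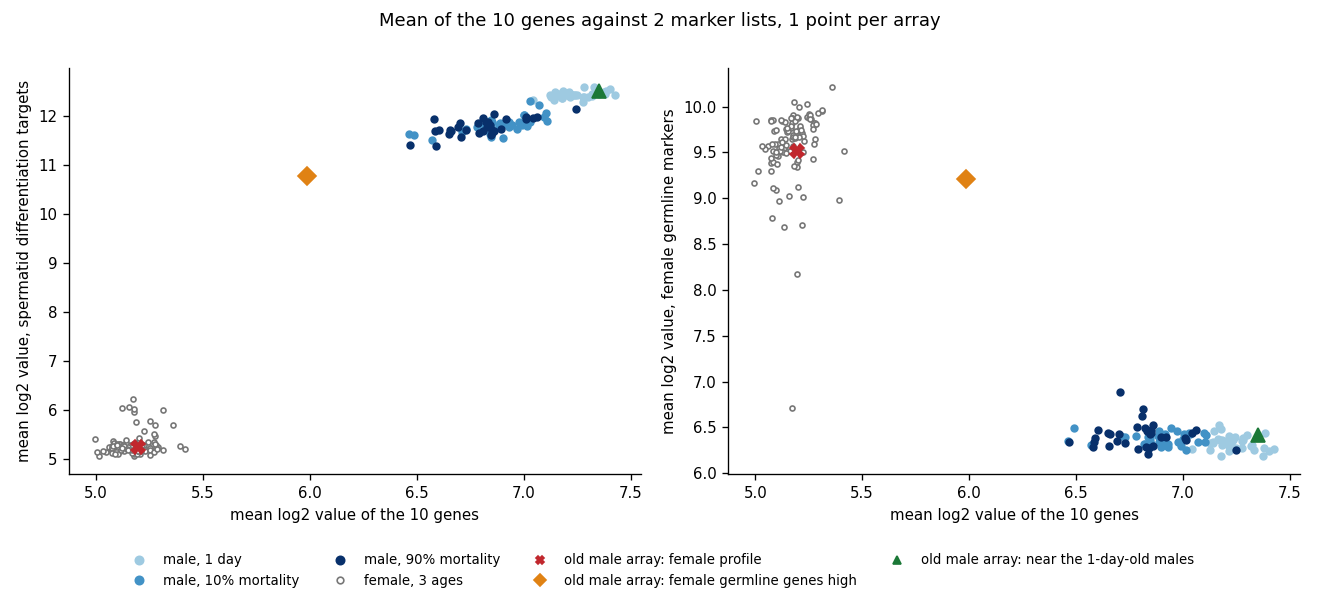
Mean log2 value of the 10 genes (x axis) against the mean log2 value of the spermatid differentiation targets (left, y axis) and of the female germline markers (right, y axis), 1 point per array, with the 3 old male arrays that stand apart drawn as larger symbols. The array of female profile lies among the females at 5.20, the array with high female germline genes lies between the sexes at 5.99, and the array near the 1-day-old males lies at 7.35.

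All 10 genes were higher in males than in females at each age on the deposited scale, *tomb* and *mia* depending on that scale as given below, and the size ran from 0.38 to 3.55 on the log2 scale. The bromodomain gene *tbrd-1* and the testis TAF genes *sa* and *can* had the largest differences among the 10, and *mia* and *tomb* the smallest. Values in females, which have no testis, are given beside those of males, and whether they are background signal or expression elsewhere in the body was not tested.

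Among the genes of tMAC, *aly* (always early) encodes the testis relative of Mip130, a subunit of the general complex. Its lowest, median and highest values were 4.39, 4.92 and 5.77 in 1-day-old males, against 3.32, 3.96 and 4.37 in 1-day-old females. *comr* (cookie monster) encodes an acidic nuclear protein of the complex, with 5.20, 5.64 and 5.95 in 1-day-old males, against 4.00, 4.34 and 4.78 in females. The sexes did not overlap for either gene at this age, though for *aly* the lowest male lay within 0.1 of the highest female. *topi* (matotopetli), which encodes a zinc finger protein, had 7.23, 7.54 and 8.09 in 1-day-old males, against 5.28, 5.62 and 6.18 in females. For *tomb* (tombola), which encodes a protein with the CXC domain of Mip120, the values were 6.33, 6.65 and 6.92 in 1-day-old males, against 5.49, 5.89 and 6.46 in females. Males were above all females for *topi*, whereas the lower males and the upper females overlapped for *tomb*.

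Among the testis TAF genes, *can* (cannonball, a relative of Taf5) had a lowest, median and highest value of 6.84, 7.32 and 7.68 in 1-day-old males, against 3.71, 4.09 and 4.41 in females. *mia* (meiosis I arrest, a relative of Taf6) had 7.97, 8.17 and 8.42 in 1-day-old males, against 7.08, 7.67 and 8.02 in females. The sexes lay far apart for *can* and overlapped for *mia*, the gene with the smallest sex difference of the 10. *nht* (no hitter, a relative of Taf4) had 7.36, 7.64 and 7.87 in 1-day-old males, against 4.72, 5.35 and 5.83 in females. *sa* (spermatocyte arrest, a relative of Taf8) had 7.76, 8.20 and 8.55 in 1-day-old males, against 4.36, 4.59 and 5.28 in females. No male array came near the females for these genes. The bromodomain genes encode proteins that bind acetylated histones and, in the case of tBRD-1, work with the testis TAFs. *tbrd-1* had 8.07, 8.21 and 8.44 in 1-day-old males, against 4.27, 4.74 and 5.02 in females. For *tbrd-3* the values were 7.55, 8.03 and 8.59 in 1-day-old males, against 5.39, 5.77 and 6.15 in females. Both were higher in all 36 males than in any of the 36 females.

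In limma's moderated test with Benjamini-Hochberg adjustment over all probe sets, the male minus female difference at 1 day was 3.55 for *sa* (SE 0.057, adjusted p = 3.2e-115), 3.52 for *tbrd-1* and 3.25 for *can*. It was 0.74 for *tomb* (SE 0.045, adjusted p = 9.47e-37) and 0.55 for *mia* (SE 0.040, adjusted p = 2.39e-28). All 10 genes were called higher at each age, where 30.2% of all probe sets were called higher at 1 day, 28.7% at middle age and 30.0% at old age. The median difference over the 10 genes was 2.09 at 1 day, 1.59 at middle age and 1.42 at old age, while over all probe sets it was -0.27, -0.26 and -0.27. Values of 8 of the 10 genes did not overlap between the sexes at each age, against 14.9%, 10.7% and 11.4% of probe sets that were higher in males in this way at 1 day, middle age and old age. The exceptions were *tomb* and *mia*. Their direction depended on the scaling: with each array centred on its median, which moved the median over all probe sets at old age to -0.83, *tomb* was lower in old males than in old females by 0.18 (adjusted p = 0.000206, limma), and *mia* differed by 0.00 at middle age (adjusted p = 0.972) and 0.04 at old age (adjusted p = 0.316). With that centring 21.1%, 18.6% and 18.2% of the calls were higher in males at 1 day, middle age and old age, against 31.9%, 30.3% and 31.8% as deposited. The other 8 genes were higher in males under both scalings.

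For comparison, the 15 spermatid differentiation targets, a list of genes that need the arrest genes, were all called higher in males at each age, with median differences of 7.75 at 1 day and 6.99 at both later ages. None of the 11 general counterparts (subunits of MuvB, E2F partners and general TAFs) was called higher in males, and all 11 were lower, with a median of -1.92 at 1 day.

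**Figure D2:**
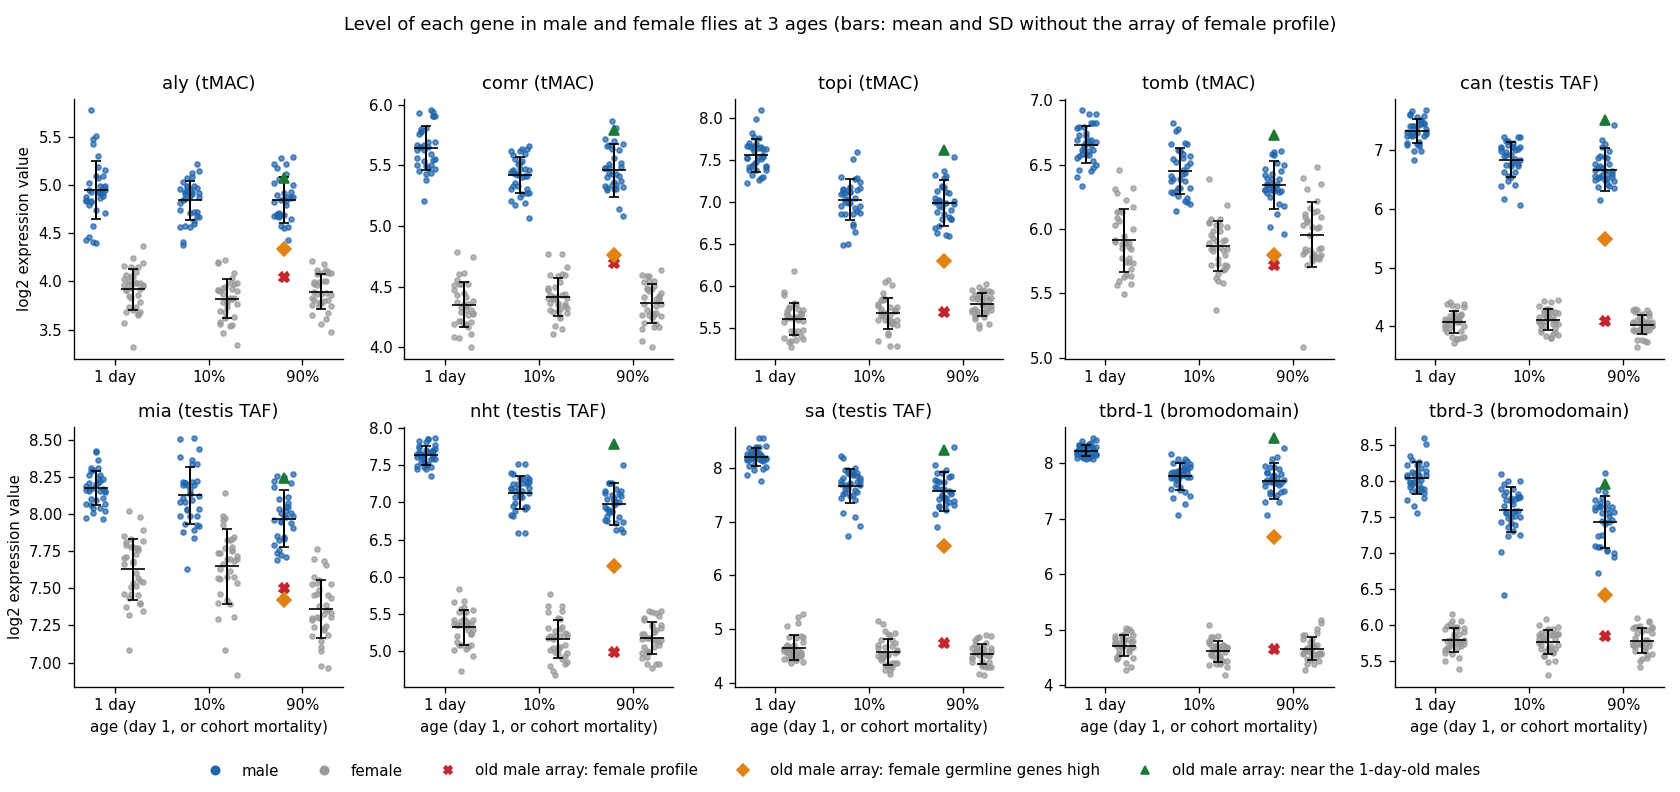
Log2 expression value (y axis) of each of the 10 genes in males (blue, left) and females (grey, right) at 1 day, 10% and 90% cohort mortality (x axis), 1 point per array with the mean and SD of each sex and age without the array of female profile. Males lie above females for 8 genes at each age, *tomb* and *mia* overlap between the sexes, *tomb* turning lower in old males and *mia* losing its call at the later ages when arrays are centred on their medians, and most genes lie lower in middle-aged and old males than at 1 day.

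Between 1 day and middle age 8 of the 10 genes fell in males, and *aly* and *mia* did not pass the test. The falls of *topi*, *nht*, *sa*, *can*, *tbrd-1* and *tbrd-3* lay between 0.44 and 0.54 on the log2 scale, and those of *comr* and *tomb* were smaller. In whole flies, fewer spermatocytes and less RNA per spermatocyte cannot be told apart, and neither can a change in the rest of the body that dilutes the testis.

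*sa* had a lowest, median and highest value of 6.74, 7.71 and 8.22 in 36 middle-aged males, against 7.76, 8.20 and 8.55 at 1 day. *topi* had 6.49, 7.04 and 7.60, against 7.23, 7.54 and 8.09 at 1 day. *nht* had 6.58, 7.17 and 7.52, against 7.36, 7.64 and 7.87. For these genes the medians of middle-aged males lay below the lowest 1-day-old male, and only the upper middle-aged arrays reached into the 1-day range. *can* had 6.07, 6.92 and 7.23 in middle-aged males, against 6.84, 7.32 and 7.68 at 1 day. For *tbrd-1* the values were 7.07, 7.80 and 8.16, against 8.07, 8.21 and 8.44 at 1 day, and for *tbrd-3* they were 6.41, 7.62 and 8.09, against 7.55, 8.03 and 8.59. The spread widened in *tbrd-1*, whose SD was 0.24 in middle-aged males and 0.10 at 1 day. *comr* had 5.06, 5.43 and 5.66 in middle-aged males, against 5.20, 5.64 and 5.95 at 1 day. *tomb* had 6.14, 6.43 and 6.83, against 6.33, 6.65 and 6.92. In these subunits of tMAC the ages overlapped over most of their range. *aly* had 4.38, 4.89 and 5.21 in middle-aged males, against 4.39, 4.92 and 5.77 at 1 day, and *mia* had 7.63, 8.13 and 8.51, against 7.97, 8.17 and 8.42. The medians of both genes lay within 0.1 of each other at these ages. No gene of the 10 had ranges that did not overlap between the ages, against 5.72% of all probe sets that were lower in this way.

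The fall was 0.54 for *sa* (SE 0.061, adjusted p = 3.25e-13, limma), 0.53 for *topi* (SE 0.054, adjusted p = 8.93e-15) and 0.51 for *nht* (SE 0.049, adjusted p = 2.81e-16). The differences of *can*, *tbrd-1* and *tbrd-3* were -0.48, -0.46 and -0.44, and those of *comr* and *tomb* -0.22 and -0.20. *aly* differed by -0.10 (adjusted p = 0.103, limma) and *mia* by -0.05 (adjusted p = 0.197). The 8 calls stood against 35.6% of all probe sets called lower and 74.0% called in either direction. The median over the 10 genes was -0.45, while over all probe sets it was -0.003. With the array of female profile in the fit the same 8 genes passed (34.8% of all probe sets called lower). With arrays centred on their medians *aly* and *mia* passed too, at -0.16 (adjusted p = 0.0129, limma) and -0.10 (adjusted p = 0.0040), so their levels were not shown to hold.

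Genes that work beside or after the 10 moved in part with them. Of 8 other partners, 5 were lower in middle-aged males and 2 higher, with a median of -0.29. The testis TAF gene *rye* differed by -0.68, the spermatocyte zinc finger gene *kmg* by -0.55, the tMAC homeodomain gene *vis* by -0.46 and *wuc*, a relative of *lin-52*, by -0.33, while *Caf1-55*, shared with the general complex, was higher by 0.50 and *achi* by 0.19. *achi* and *vis* are near-identical neighbours, so probes may not separate them. All 15 spermatid differentiation targets were lower, with a median of -0.62, among them *Mst98Ca* (-0.86), *soti* (-0.73), *janB* (-0.73) and *Mst98Cb* (-0.67). All 6 spermatocyte structural genes were lower, with a median of -0.54, among them *S-Lap5* (-0.86), *Prosalpha6T* (-0.69) and the testis tubulin *betaTub85D* (-0.54). Of the meiotic cell cycle genes, *twe*, the Cdc25 phosphatase of meiosis, was higher by 0.75, *bol*, which promotes its translation, was lower by 0.58, and *CycB* differed by 0.05 without passing the test. Of the 11 general counterparts, 10 were higher, among them *Taf4* (0.70), *mip120* (0.63), *Taf12* (0.50) and *lin-52* (0.45), and *E2f2* was lower by 0.13.

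Markers of other cells also moved between these ages. Among 6 early male germline genes *bam* was higher by 1.37 and *bgcn* lower by 0.58, and among 3 genes of the testis soma *eya* was lower by 0.14. The mean over the early germline list was 5.88 to 6.53 in middle-aged males, against 5.67 to 6.09 at 1 day. In 1-day-old females it was 9.34 to 9.95, so in whole flies this list does not mark the male germline alone. The mean over the testis soma list was 5.67 to 5.90 in middle-aged males, against 5.73 to 5.97 at 1 day. In 1-day-old females that mean was 6.34 to 6.94. Of 11 accessory gland genes, 8 were lower and 2 higher, with a median of -0.49. The mean over the accessory gland list was 11.63 to 12.25 in middle-aged males, against 12.48 to 12.68 at 1 day. Of the 11 eggshell and yolk genes, 2 were higher (*Yp1* by 3.21, *Yp2* by 0.73) and 3 lower, and the mean over that list was 6.15 to 8.12 in middle-aged males, against 6.002 to 7.450 at 1 day. The part of these markers in the result was not tested.

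The fall was seen on each larval and each adult diet. On adult 0.25SY, 1SY and 2.5SY, 9, 8 and 8 of the 10 genes were called lower (61.6%, 60.5% and 62.5% of all probe sets were called in either direction). On larval 0.25SY, 1SY and 2.5SY the counts were 7, 8 and 8 (61.7%, 63.5% and 59.6%), with medians of -0.30, -0.52 and -0.43 over the 10 genes. These shares hold both directions, and over all diets together 35.6% of probe sets were called lower. With the array of female profile in the fit larval 0.25SY had 5 genes called (57.0% of all probe sets) and adult 0.25SY had 8, while the counts on the other diets stayed the same. The gene that did not follow the others was *mia*. It was lower by 0.19 in middle-aged males on adult 0.25SY (SE 0.059, adjusted p = 0.0048, limma), higher by 0.14 on adult 1SY (adjusted p = 0.0335) and differed by -0.10 on adult 2.5SY (adjusted p = 0.133). The difference on 0.25SY minus that on 1SY was -0.33 for *mia* (SE 0.084, adjusted p = 0.0125, limma), the only call among the 10 genes, where 4.28% of all probe sets were called. The difference on 2.5SY minus that on 1SY was -0.24 (adjusted p = 0.240), with 0 of the 10 genes called, 1 at an unadjusted p under 0.05, and 0.661% of all probe sets called. These tests of differences between diets were added after the values had been seen.

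**Figure D3:**
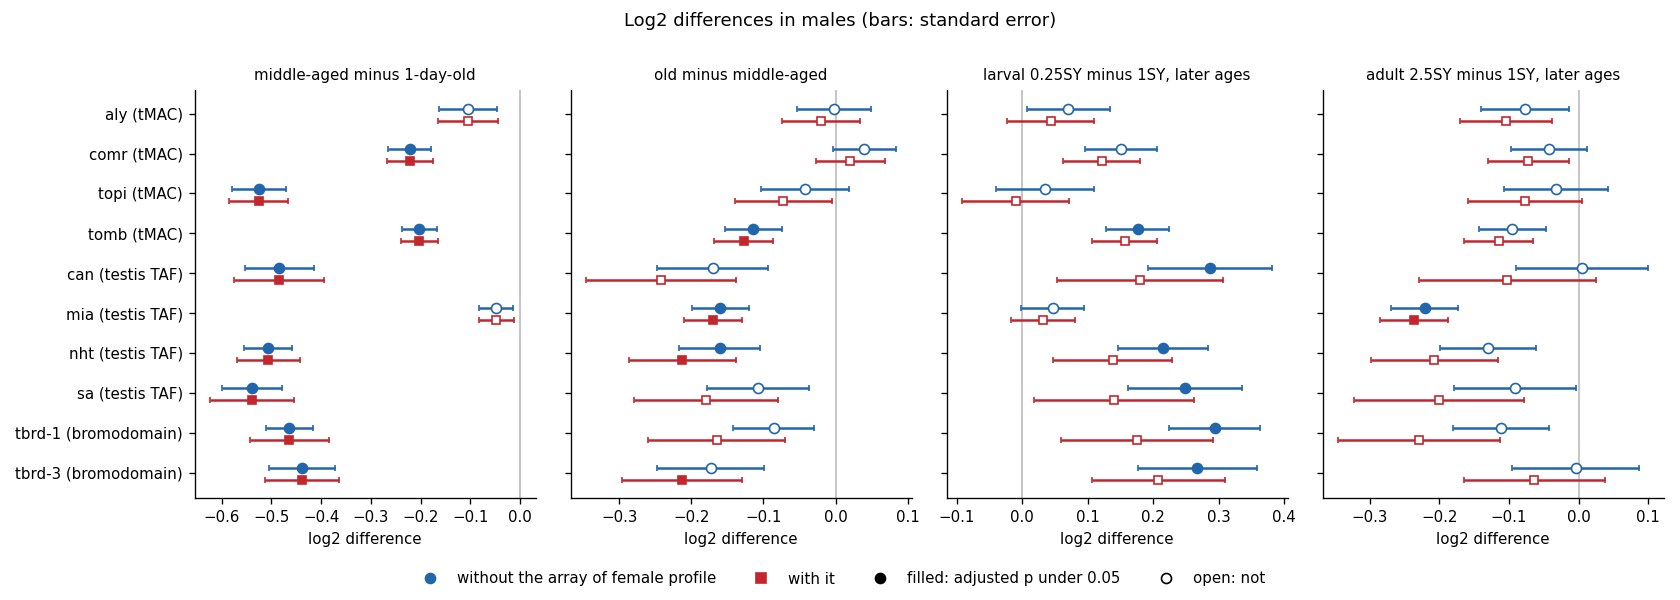
Log2 difference with its standard error (x axis) of each of the 10 genes (y axis) in 4 comparisons of males, without the array of female profile (blue circles) and with it (red squares), filled where limma's adjusted p was under 0.05. The middle-aged minus 1-day-old differences keep their calls with the array, while the 6 calls of larval 0.25SY minus 1SY turn to open symbols with it.

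Between middle age and old age the genes changed little. *mia*, *nht* and *tomb* fell, by 0.11 to 0.16 on the log2 scale, and the other 7 genes did not pass the test.

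*mia* had a lowest, median and highest value of 7.42, 7.99 and 8.27 in 35 old males, against 7.63, 8.13 and 8.51 in 36 middle-aged males. *nht* had 6.14, 7.00 and 7.79 in old males, against 6.58, 7.17 and 7.52 at middle age. *tomb* had 5.80, 6.34 and 6.73, against 6.14, 6.43 and 6.83. The lowest value of each of these genes came from the array with high female germline genes, and the highest of *nht* and *tomb* from the array near the 1-day-old males. The ages overlapped in each gene, with 7 middle-aged arrays above all old males for *mia* and 3 for *tomb*, and 1, 1 and 4 old arrays below all middle-aged males for *mia*, *nht* and *tomb*. Of the genes that did not pass, *can* had 5.49, 6.65 and 7.52 in old males, *sa* 6.54, 7.54 and 8.39, *tbrd-1* 6.66, 7.68 and 8.44, and *tbrd-3* 6.42, 7.52 and 8.10. *aly* had 4.33, 4.84 and 5.29, *comr* 4.76, 5.44 and 5.87, and *topi* 6.30, 7.00 and 7.62. The arrays that stood apart gave the extremes of *can*, *tbrd-1* and *topi* at both ends. No gene of the 10, and no probe set of all those tested (0.0%), had old and middle-aged males that did not overlap.

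The difference was -0.16 for *mia* (SE 0.039, adjusted p = 0.000611, limma), -0.16 for *nht* (SE 0.056, adjusted p = 0.0154) and -0.11 for *tomb* (SE 0.039, adjusted p = 0.0146). Against these 3 calls, 21.8% of all probe sets were called lower and 44.8% in either direction, and the medians were -0.11 over the 10 genes and -0.02 over all probe sets. *can* and *tbrd-3* differed by -0.17 each (adjusted p = 0.0654 and 0.0505), *sa* by -0.11, *tbrd-1* by -0.09, *topi* by -0.04, *aly* by -0.00 and *comr* by 0.04. With the array of female profile 4 genes passed, *tbrd-3* being added at -0.21 (adjusted p = 0.0336, limma, with 41.2% of all probe sets called), and without all 3 arrays that stand apart 3 genes passed. None of the 15 spermatid differentiation targets was called (median -0.05), and of 1756 male-biased probe sets (at least 2 higher in males on the log2 scale and called at 1 day, a set defined from these data) 296 were lower and 27 higher (median -0.09). Of the accessory gland genes 8 were lower and 1 higher (median -0.47).

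On adult 2.5SY, 5 of the 10 genes were lower in old males than in middle-aged males: *sa* by 0.35, *can* by 0.32, *nht* by 0.31, *tbrd-1* by 0.27 and *mia* by 0.22 (adjusted p from 0.00289 to 0.0387, limma). The median over the 10 genes was -0.24, and 29.9% of all probe sets were called in either direction. Over all diets together 21.8% of probe sets were called lower. The array of female profile belongs to the old males of this diet, and with it 7 genes were lower, *tbrd-3* and *tomb* being added, with a median of -0.31 (41.0% of all probe sets called). On adult 1SY *mia* alone was lower, by 0.21 (22.6% of all probe sets called), and on adult 0.25SY *tomb* alone, by 0.17 (27.3%). The change on 2.5SY minus that on 1SY passed for 0 of the 10 genes in limma's test, with 3 genes at an unadjusted p under 0.05, a median of -0.24 and 0.24% of all probe sets called. The changes on these diets were thus not shown to differ. By larval diet, 0, 1 and 1 genes were lower on 0.25SY, 1SY and 2.5SY, *mia* in both cases (13.8%, 32.9% and 35.1% of all probe sets called), and on larval 0.25SY 1 gene had an unadjusted p under 0.05 in limma's test. On that diet *tomb* was lower by 0.20 with the array of female profile, which is larval 0.25SY (adjusted p = 0.0183, limma; 20.2% called). Set against 1-day-old males, old males were lower in 9 genes, with a median of -0.56 (44.4% of all probe sets called lower), and *aly* differed by -0.11 (adjusted p = 0.0899, limma).

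Larval food was the other factor with calls in several genes. Over middle-aged and old males together, 6 of the 10 genes were higher after larval 0.25SY than after larval 1SY when the array of female profile was left out, by 0.18 to 0.29 on the log2 scale. With that array, which is labelled larval 0.25SY, 0 of the 10 genes passed.

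*tbrd-1* had a lowest, median and highest value of 7.77, 7.93 and 8.16 in 12 middle-aged males of larval 0.25SY, against 7.27, 7.72 and 8.003 in 12 of larval 1SY. In old males it had 7.29, 7.89 and 8.44 in 11 arrays of larval 0.25SY, against 6.66, 7.64 and 7.82 in 12 of larval 1SY. The median of larval 0.25SY lay above that of 1SY at both ages, and the arrays overlapped. *tomb* had 6.21, 6.59 and 6.78 in middle-aged males of larval 0.25SY, against 6.14, 6.34 and 6.56 in those of 1SY. In old males it had 6.02, 6.39 and 6.73 after larval 0.25SY, against 5.80, 6.30 and 6.42 after larval 1SY. Here too the groups overlapped, and the old male medians lay within 0.1 of each other. *can* had 6.63, 7.03 and 7.23 in middle-aged males of larval 0.25SY, against 6.17, 6.77 and 7.06 in those of 1SY, and in old males 6.49, 6.74 and 7.52, against 5.49, 6.54 and 7.00. *sa* had 7.50, 7.87 and 8.22 in middle-aged males of larval 0.25SY, against 7.08, 7.70 and 7.97, and in old males 7.14, 7.73 and 8.39, against 6.54, 7.54 and 7.90. In old males the lowest of larval 1SY was in each of these genes the array with high female germline genes. *nht* had 7.08, 7.25 and 7.52 in middle-aged males of larval 0.25SY, against 6.58, 7.13 and 7.39, and *tbrd-3* had 7.31, 7.72 and 8.002, against 6.41, 7.56 and 7.89. In old males *nht* had 6.76, 7.11 and 7.79 after larval 0.25SY, against 6.14, 6.96 and 7.27 after 1SY, and *tbrd-3* had 7.08, 7.57 and 7.96, against 6.42, 7.24 and 7.74. Medians were higher after larval 0.25SY at both ages in all 6 genes.

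The difference was 0.29 for *tbrd-1* (SE 0.069, adjusted p = 0.00561, limma), 0.29 for *can* (SE 0.095, adjusted p = 0.0337) and 0.18 for *tomb* (SE 0.048, adjusted p = 0.0117). It was 0.27 for *tbrd-3* (adjusted p = 0.0389), 0.25 for *sa* (adjusted p = 0.0455) and 0.22 for *nht* (adjusted p = 0.0276). *comr* differed by 0.15 (adjusted p = 0.0512), *aly* by 0.07, *mia* by 0.05 and *topi* by 0.03. The 6 calls stood against 7.97% of all probe sets called higher and 14.2% in either direction, and the medians were 0.20 over the 10 genes and -0.01 over all probe sets. With the array of female profile the median of the 10 genes was 0.14, their adjusted p ran from 0.112 to 0.980, and 0.304% of all probe sets were called. Without all 3 arrays that stand apart 2 genes passed, *tbrd-1* at 0.23 (adjusted p = 0.015, limma) and *tomb* at 0.15 (adjusted p = 0.041), with 7.54% of all probe sets called. With blocks of the provider's sample numbers in the fit 0 genes passed in limma's test, *tbrd-1* standing at 0.25 (adjusted p = 0.093), and 0.298% of all probe sets were called.

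**Figure D4:**
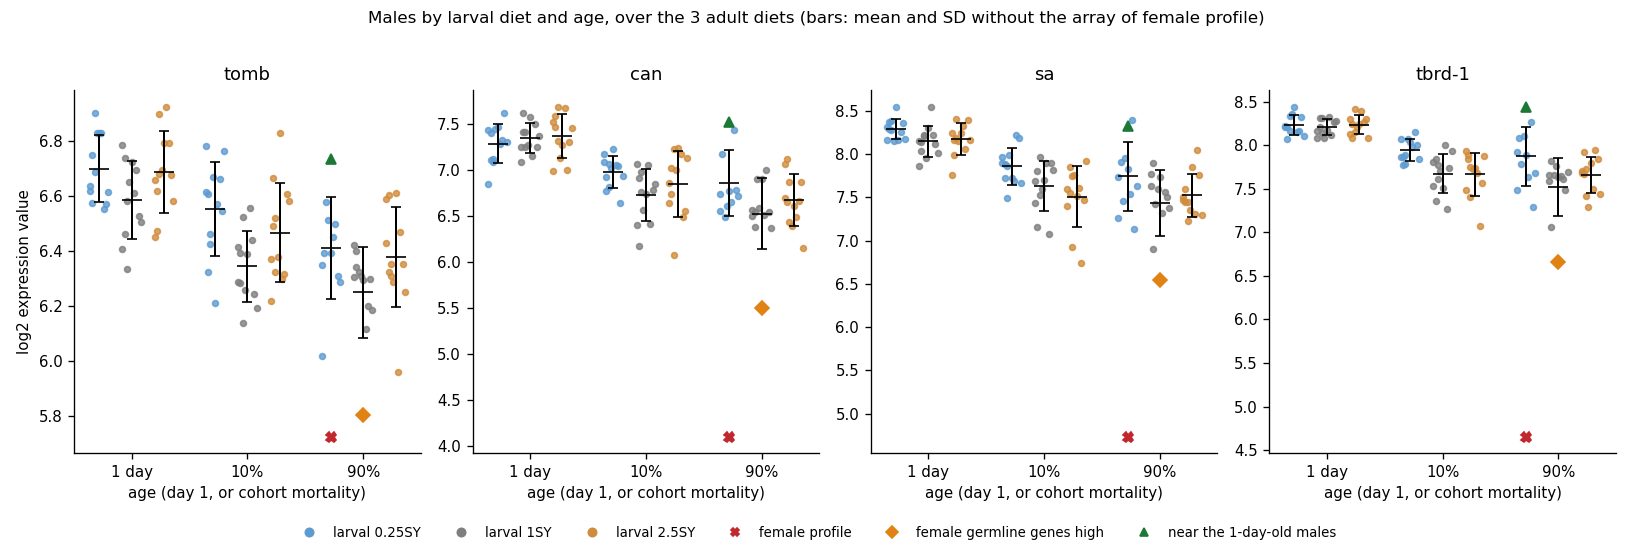
Log2 expression value (y axis) of *tomb*, *can*, *sa* and *tbrd-1* in males by age (x axis) and larval diet (colour), over the 3 adult diets, 1 point per array with the mean and SD without the array of female profile. At the later ages larval 0.25SY has the highest mean of the 3 larval diets in each panel, its old males hold the array of female profile, and the array with high female germline genes lies lowest among the old males of larval 1SY.

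Spermatid genes moved the same way in this comparison. Of the 15 spermatid differentiation targets 12 were higher after larval 0.25SY, with a median of 0.23, among them *Mst98Ca* (0.32), *Mst98Cb* (0.29), *janB* (0.28) and the protamine gene *Mst35Ba* (0.26). Of the 6 spermatocyte structural genes 5 were higher (median 0.24), and of the 8 other partners 3 (*vis* by 0.31, *wuc* by 0.24 and *kmg* by 0.18). None of the 11 general counterparts was higher and *Taf5* was lower by 0.17. In limma's test 0 genes of any of these lists passed with the array of female profile, and the medians were -0.05 over the spermatid targets, 0.01 over the structural genes and 0.13 over the other partners. Of the 1756 male-biased probe sets 1101 were higher and 3 lower (median 0.25), and with the array of female profile 3 were higher (median 0.09).

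By age, limma's test of larval 0.25SY against 1SY passed for 0 of the 10 genes in middle-aged males, with 5 at an unadjusted p under 0.05 and a median of 0.20 (0.202% of all probe sets called). It passed in old males for *tbrd-1* (0.32, adjusted p = 0.00601) and *nht* (0.25, adjusted p = 0.0398), with a median of 0.20 (16.4% called), and with the array of female profile for 0 of the 10 genes, with a lowest adjusted p of 0.419 and a median of 0.09 (1.8% called). In 1-day-old males it passed for 0 of the 10 genes, with 1 at an unadjusted p under 0.05 (2.68% called), and the median at that age was -0.00. The later-age difference minus the 1-day difference had a median of 0.14, with 0 of the 10 genes called, 4 at an unadjusted p under 0.05 and 4.62% of all probe sets called, so a change of the larval effect with age was not shown for any of the 10. In limma's F-test of larval diet over its 3 levels, *tbrd-1* (adjusted p = 0.0145), *tomb* (0.0311), *tbrd-3* (0.0416) and *nht* (0.0431) passed, where 8.75% of all probe sets did. With the array of female profile 0 of the 10 genes passed (0.272% of all probe sets).

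Larval 2.5SY against 1SY gave 0 calls among the 10 genes at the later ages in limma's test and 0 among all probe sets (0.0%). At an unadjusted p under 0.05 stood 2 genes, *tbrd-3* at 0.29 (adjusted p = 0.419) and *tomb* at 0.13 (adjusted p = 0.504), and the other 8 differed by -0.02 to 0.13. At 1 day 0 of the 10 genes were called, 0 had an unadjusted p under 0.05, and 0.149% of all probe sets were called.

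Adult food gave a call in 1 gene of the 10, *mia*. Over the later ages *mia* was lower in males kept on 0.25SY and in males kept on 2.5SY than in males kept on 1SY, while the other 9 genes did not pass in either comparison. Of all probe sets 11.6% were called on 0.25SY and 2.36% on 2.5SY, so 1 gene of 10 is near the share on 0.25SY.

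In middle-aged males *mia* had a lowest, median and highest value of 7.63, 8.03 and 8.36 on adult 0.25SY, 8.03, 8.27 and 8.51 on 1SY and 7.84, 8.06 and 8.23 on 2.5SY. In old males it had 7.42, 8.01 and 8.27 on 0.25SY, 7.72, 8.07 and 8.25 on 1SY and 7.69, 7.83 and 8.01 on 2.5SY. At 1 day it had 7.97, 8.21 and 8.42 on 0.25SY, 8.01, 8.16 and 8.37 on 1SY and 7.97, 8.16 and 8.42 on 2.5SY. At middle age the median was highest on 1SY, at old age the median was lowest on 2.5SY and the lowest array was on 0.25SY, and at 1 day the diets covered the same range. The groups overlapped at each age.

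Over the later ages *mia* differed by -0.19 between adult 0.25SY and 1SY (SE 0.047, adjusted p = 0.00373, limma; 11.6% of all probe sets called) and by -0.22 between adult 2.5SY and 1SY (SE 0.048, adjusted p = 0.00324; 2.36% called). With the array of female profile, which is labelled adult 2.5SY, these were -0.19 (adjusted p = 0.00626; 8.28% called) and -0.24 (adjusted p = 0.00167; 2.37% called), and without all 3 arrays that stand apart -0.16 (adjusted p = 0.00889) and -0.21 (adjusted p = 0.00208). At middle age *mia* differed by -0.27 on 0.25SY (adjusted p = 0.000469, limma; 13.0% called) and by -0.22 on 2.5SY (adjusted p = 0.0324; 1.61% called). At old age it differed by -0.11 on 0.25SY (adjusted p = 0.387; 4.79% called) and by -0.22 on 2.5SY (adjusted p = 0.0187; 3.98% called). At 1 day the differences were 0.05 and 0.03, with 0 of the 10 genes called in limma's test, 0 at an unadjusted p under 0.05, and 0.117% and 0.0906% of all probe sets called.

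*nht* stood next in old males, with a lowest, median and highest value of 6.14, 7.08 and 7.51 on adult 0.25SY, 6.72, 7.04 and 7.79 on 1SY and 6.63, 6.82 and 7.15 on 2.5SY. Its 2.5SY minus 1SY difference in old males was -0.26 (adjusted p = 0.0653, limma), and that of *tbrd-1* was -0.26 (adjusted p = 0.0588). Only *mia* passed in this comparison without the array of female profile, and with it 5 genes passed (14.3% of all probe sets called), *mia*, *nht* at -0.42 (adjusted p = 0.0105, limma), *tbrd-1* at -0.50 (adjusted p = 0.0137), *sa* at -0.49 (adjusted p = 0.0216) and *tomb* at -0.19 (adjusted p = 0.0419). The highest old value of *nht*, 7.79, came from the array near the 1-day-old males, which is an adult 1SY array. In limma's F-tests over the later ages, *mia* alone passed for adult diet (adjusted p = 0.0006; 16.5% of all probe sets called). The interactions gave 0 calls among the 10 genes, with a lowest adjusted p of 0.432 for adult diet by age, 0.519 for the interaction of all 3 factors, 0.802 for larval diet by age and 0.987 for larval by adult diet (0.559%, 0.0266%, 0.00533% and 0.0213% of all probe sets called).

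**Figure D5:**
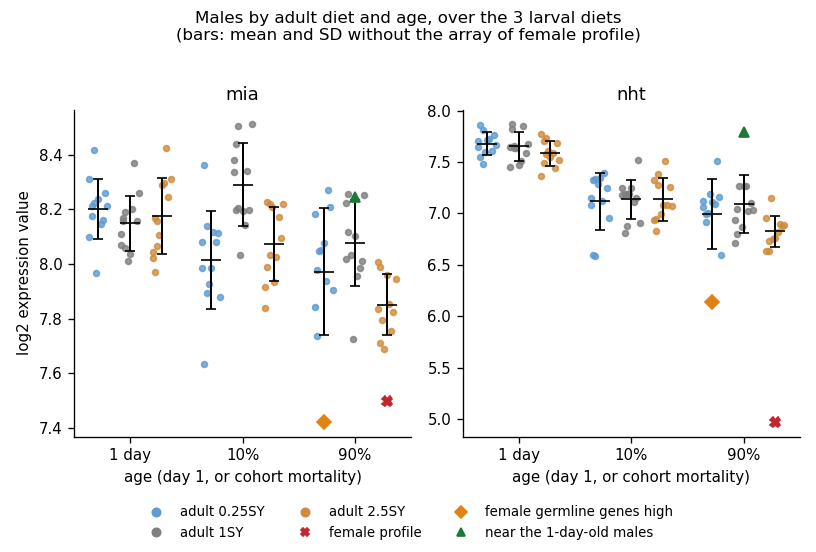
Log2 expression value (y axis) of *mia* and *nht* in males by age (x axis) and adult diet (colour), over the 3 larval diets, 1 point per array with the mean and SD without the array of female profile. At middle age *mia* lies highest on 1SY, with a mean of 8.29, and in old males both genes have their lowest mean on 2.5SY.

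The genes varied together from array to array. After the mean of each group was taken off, the correlation of a gene with the mean of the other 9 over 107 male arrays was 0.846 for *tbrd-1*, 0.787 for *sa*, 0.729 for *nht*, 0.681 for *can*, 0.667 for *topi*, 0.548 for *tbrd-3*, 0.521 for *comr*, 0.517 for *mia*, 0.417 for *tomb* and 0.319 for *aly*. Without the arrays that stand apart the order was much the same and the values lower, from 0.802 for *tbrd-1* to 0.271 for *aly* over 105 arrays. Points of this kind share an array, its normalization and the makeup of its 5 flies. The genes outside the lists whose pattern over the 107 male arrays was most like the mean of the 10 were *I-t* (Pearson r = 0.947), *CG31528* (0.946), *CG15177* (0.945), *CG13898* (0.941) and *CG32461* (0.940), which is a description of these arrays. For these genes the group means were not taken off, so differences between ages and diets enter the values. Computed that way, the correlation with the mean of the other 9 ran from 0.940 for *tbrd-1* to 0.362 for *aly*.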

How the data were processed

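The deposited values are log2 expression values made by the authors with RMA (background adjustment, quantile normalization and summary of the probes of each probe set). In the study's methods males and females were normalized separately, and 4 male and 2 female arrays, not named, were dropped. The deposited table held all 216 arrays (108 male), and whether it was made per sex is not given in the sources used here. Values ran from 2.90 to 15.09 with 0 missing. With the array of female profile among the males, array medians ran from 6.73 to 7.39 in males and from 6.62 to 6.92 in females. Over the probe sets tested, that array had a median of 6.76 and the other males at least 7.03, against at most 6.96 in females. Arrays have no read depth, so their number limits the precision, and dim probe sets compress differences.

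Of 18952 probe sets, 183 controls were left out and 18769 tested. The platform annotation paired 13646 with 1 gene symbol, 402 with several and 4721 with none, and 13543 symbols were updated through Entrez identifiers.

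limma 3.58.1 (R 4.3.3) fitted a mean per group. Contrasts of equally weighted group means used 71 arrays of middle-aged and old males, after the methods' model of both diets and age with their interactions, 107 male arrays of 3 ages for contrasts with day 1 or within an age, and 215 arrays for contrasts of the sexes. A call is an adjusted p under 0.05 (Benjamini-Hochberg over all 18769 probe sets). A share of all probe sets called counts either direction unless it is given as higher or lower. The scripts were tested on simulated data. By the methods, middle-aged and old flies of a group came from 1 cohort, whether the 1-day-old flies came from these cohorts is not given in the sources used here, and nothing says that arrays were separate cultures, so p-values measure the spread between these samples.

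All 10 genes are named. Of each other list up to 4 genes with the largest difference and up to 2 against the direction were named, with the 5 genes whose pattern was most like the mean of the 10. The genes and lists were chosen with earlier results of these data known. Of the 12 general counterparts listed, 11 had a probe set of their own. A listed gene with several probe sets, such as *rye* (2), *bol* (3) and *Taf4* (2), was given by the brightest in males. Its other probe sets are not described.

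Alternatives were the array of female profile kept, all 3 arrays that stand apart left out, array weights, ANOVA without moderation (the methods' test), arrays centred on their medians, quantile normalization repeated over males, a mean log2 value of at least 5, the replicate number or the provider's sample numbers, in runs of 24, as a block in the fit, each replicate left out, 1 fit over 3 ages and 1 probe set per gene. Differences of contrasts between diets or ages and counts of ranges that do not overlap were added after the data had been seen.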

Additional observations from a re-analysis of the deposited data

Results flagged for a closer look

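In each male group of 4 arrays, the gap from the highest or lowest array to its neighbour was set against the range of the group (Dixon's test at its 95% critical value), for 10 genes in 27 groups. Of these 270 sets, 23 (8.5%) held an array far from the other 3, where chance marks about 5%, or 1 in 20, and 13 of the 23 were in old males. Of the 23, 10 were on 2 of the old male arrays that stand apart, and the other 13 are 5.2% of the 250 sets of the groups without them, a share near that of chance. The old male array of larval 0.25SY, adult 2.5SY, replicate 1, which has a female profile, was marked in 6 genes. There *aly* stood at 4.04, against 4.68 to 4.70 on the other arrays of its group, *topi* at 5.70 (6.69 to 6.88), *can* at 4.10 (6.55 to 6.77), *nht* at 4.98 (6.76 to 6.90), *sa* at 4.73 (7.14 to 7.63) and *tbrd-1* at 4.65 (7.29 to 7.69). The old male array of larval 1SY, adult 0.25SY, replicate 1, with high female germline genes, was marked in 4 genes. There *aly* stood at 4.33, against 4.79 to 4.88, *topi* at 6.30 (7.11 to 7.18), *nht* at 6.14 (7.00 to 7.06) and *tbrd-1* at 6.66 (7.61 to 7.64).

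The other 13 marks were spread over single arrays. In old males *can* stood at 6.90 (larval 1SY, adult 1SY, replicate 3, against 6.54 to 6.58), *aly* at 5.22 (larval 1SY, adult 2.5SY, replicate 3, against 4.87 to 4.92) and *aly* at 4.43 (larval 2.5SY, adult 1SY, replicate 4, against 4.83 to 4.91). In middle-aged males *tomb* stood at 6.52 (larval 1SY, adult 1SY, replicate 3, against 6.26 to 6.29), *aly* at 4.62 (larval 1SY, adult 0.25SY, replicate 3, against 4.92 to 4.97) and *tbrd-1* at 8.07 (larval 0.25SY, adult 1SY, replicate 4, against 7.86 to 7.89). Also in middle-aged males *nht* stood at 6.91 (larval 2.5SY, adult 1SY, replicate 1, against 7.19 to 7.25) and *sa* at 6.74 (larval 2.5SY, adult 0.25SY, replicate 3, against 7.47 to 7.61). In 1-day-old males *can* stood at 7.62 (larval 1SY, adult 1SY, replicate 2, against 7.24 to 7.26), *aly* at 5.77 (larval 1SY, adult 2.5SY, replicate 4, against 4.79 to 4.95) and *can* at 7.09 (larval 1SY, adult 2.5SY, replicate 2, against 7.37 to 7.41). At the same age *topi* stood at 8.09 (larval 2.5SY, adult 1SY, replicate 1, against 7.63 to 7.67) and *nht* at 7.87 (larval 2.5SY, adult 1SY, replicate 3, against 7.64 to 7.68). The causes were not tested.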

How the results depend on the processing

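The middle-aged against 1-day-old calls of 8 genes were kept in all 14 alternatives run (10 genes called with arrays centred on their medians), and no later-age call of larval 2.5SY appeared in any. *mia* also passed as lower in middle-aged than in 1-day-old males with quantile normalization repeated over males (-0.10, adjusted p = 0.0048, limma). The other counts of genes called (limma, adjusted p under 0.05) moved, and the cause was not tested. For larval 0.25SY against 1SY at the later ages, 6 genes became 0 with the array of female profile, 2 without the 3 arrays that stand apart, 2 with array weights, 0 with provider blocks and 1 to 2 when a replicate was left out. In the F-test of larval diet, 4 genes became 0 with the array of female profile, 1 without the 3 arrays, 2 with ANOVA without moderation, 2 with the replicate block, 0 with provider blocks and 0 to 1 without a replicate. For old against middle-aged males, 3 genes became 5 with array weights, 6 with centred arrays, 5 with quantile normalization repeated over males, 5 with provider blocks, 5 in 1 fit over 3 ages and 1 to 6 without a replicate. *mia* passed in all 15 alternatives there, *tomb* in 13 and *nht* in 12. The adult diet calls of *mia* were kept in 14 of 15 alternatives on 0.25SY (0 to 1 genes without a replicate, lost without replicate 1) and in 13 of 15 on 2.5SY (0 with provider blocks, 0 to 1 without a replicate, lost without replicate 2). On day 1, array weights gave 1 call for larval 0.25SY.

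With centred arrays *mia* differed between the sexes at middle age by -0.0014 and *tomb* at old age by -0.18. Centring changed the share of calls that were higher to 33.4% for old against middle-aged males (51.2% as deposited), to 33.9% for adult 0.25SY (53.0%) and to 22.5% for larval 0.25SY on day 1 (45.1%).

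Same-numbered replicates did not vary together on average (mean correlations -0.008 to -0.001, 16 of 107 arrays closest to their own number). A pairing by number was thus not shown, and means of this kind cannot exclude it in single groups. With the replicate block, larval 0.25SY against 1SY called 5 genes, *sa* standing at 0.25 (adjusted p = 0.0531, limma).

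Counts over all probe sets moved too. For larval 0.25SY at the later ages 2664 became 57 with the array of female profile, 1416 without the 3 arrays, 56 with provider blocks and 448 to 1872 without a replicate. The larval F-test gave 1643, and in these settings 51, 953, 4 and 22 to 525. Adult 0.25SY gave 2174, 3327 with array weights and 1015 to 2446 without a replicate. Adult 2.5SY gave 443, 1146 with array weights, 159 with provider blocks, 810 in 1 fit over 3 ages and 99 to 381 without a replicate, and the adult F-test 3096 and 1511 to 3067 without a replicate. On day 1, larval 0.25SY gave 503, 800 without the 3 arrays, 1442 with array weights, 312 with provider blocks and 172 to 469 without a replicate, and larval 2.5SY gave 28, 76 with array weights, 45 with provider blocks and 1 to 37 without a replicate. At the later ages larval 2.5SY gave 0, 2 without the 3 arrays, 9 with array weights, 1 in 1 fit over 3 ages and 0 to 1 without a replicate.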
